A study of Macaca fascicularis with 22 samples.

Results

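Of 9 genes of the glucocorticoid system, 7 were measured in cynomolgus macaque neonates of low and average birth weight. None of the 7 differed between the birth weight groups after adjustment over all probes, where 0.0% to 0.625% of all probes did within a tissue label. Between pairs of the 3 tissue labels 2 to 7 of the 7 differed in level, where 64.9% to 66.9% of all probes did. With scaling by the spike-in controls 2 to 3 of the 7 did. Members were chosen by accession: every non-control probe whose annotated RefSeq accession was one of 9 human accessions, for the receptors NR3C1 and NR3C2, the enzymes HSD11B1 and HSD11B2, the plasma carrier SERPINA6 and the target genes FKBP5, TSC22D3, DUSP1 and PER1. The accessions chosen for HSD11B1 (NM_005525) and TSC22D3 (NM_004089) were not on the array. The other 7 had 1 probe each, among 20217 probes for 19376 accessions. All 7 probes were well above background on all 22 arrays, passed the filter on low signals and were saturated on none. The measured accessions were NM_000176 for NR3C1, NM_000901 for NR3C2, NM_000196 for HSD11B2, NM_001756 for SERPINA6, NM_004117 for FKBP5, NM_002616 for PER1 and NM_004417 for DUSP1.

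Glucocorticoids are steroid hormones of the adrenal cortex that rise in the fetus before birth, when they promote the maturation of lung, liver and other organs. Most of the hormone in blood is bound to corticosteroid-binding globulin, the product of SERPINA6, which the liver secretes. Inside cells HSD11B1 regenerates active cortisol from cortisone and HSD11B2 inactivates cortisol, so that both set the amount that reaches the receptors. The glucocorticoid receptor (NR3C1) waits in the cytoplasm with chaperones and enters the nucleus on binding hormone, and FKBP5, TSC22D3, DUSP1 and PER1 are among the genes that it induces directly in many cell types.

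RNA from Macaca fascicularis neonates was labelled with 1 dye and hybridised to Agilent rhesus macaque arrays. The average birth weight (ABW) group came from the 50th to the 75th centile of birth weight and the low birth weight (LBW) group from the 5th to the 25th. The sample titles call the ABW arrays Control and the LBW arrays Treated, but the labels name no treatment other than birth weight. Each group had 4 arrays of skeletal muscle (biceps femoris), 4 labelled umbilical cord and 3 labelled liver. The study's neonates shared 1 sire, the labels place sampling at birth whereas the methods place that of liver and muscle several days later, and which arrays come from 1 animal is not given. The labels were checked against markers of cell types. Each of the 20 hepatocyte probes had all 8 of its cord values above all 6 of its liver values, as the labels name them, with a median difference of 13.85 on the log2 scale, and 11 of them were well above background on no ABW array labelled liver. All 13 matrix and stroma probes were higher on every array labelled liver, and all 12 striated muscle probes were highest on skeletal muscle. The markers of liver and matrix therefore go against the labels of 2 of the 3 tissues, and the arrays are called liver-labelled and cord-labelled throughout. Comparisons within a label, and those of skeletal muscle with itself, do not rest on the name of the tissue. Skeletal muscle ABW arrays lay on slide 1 and LBW arrays on slide 2, where the 2 factors cannot be told apart. The same holds for the cord-labelled LBW arrays, which all lay on slide 5 with no ABW array beside them. Liver-labelled arrays lay on slides 3 and 4 and cord-labelled arrays on slides 4, 5 and 6, of which slide 6 held cord-labelled ABW replicates 3 and 4 alone. The mean net signal of the negative controls was between 16.7 and 17.1 on slide 6 and between 29.2 and 35.3 on the other slides. The 75th percentile of the signal, a measure of brightness, lay between 315.5 on cord-labelled LBW replicate 1 and 2390 on cord-labelled ABW replicate 4.

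Each level below is a log2 signal minus the 75th percentile of its array, so that 0 is a bright probe and a difference of 1 is 2-fold. A level is set only against levels of the same probe, since probes differ in brightness for equal amounts of RNA. In these bulk samples a lower level can come from fewer cells that hold a transcript or from less of it per cell, and the 2 cannot be told apart.

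**Figure D1:**
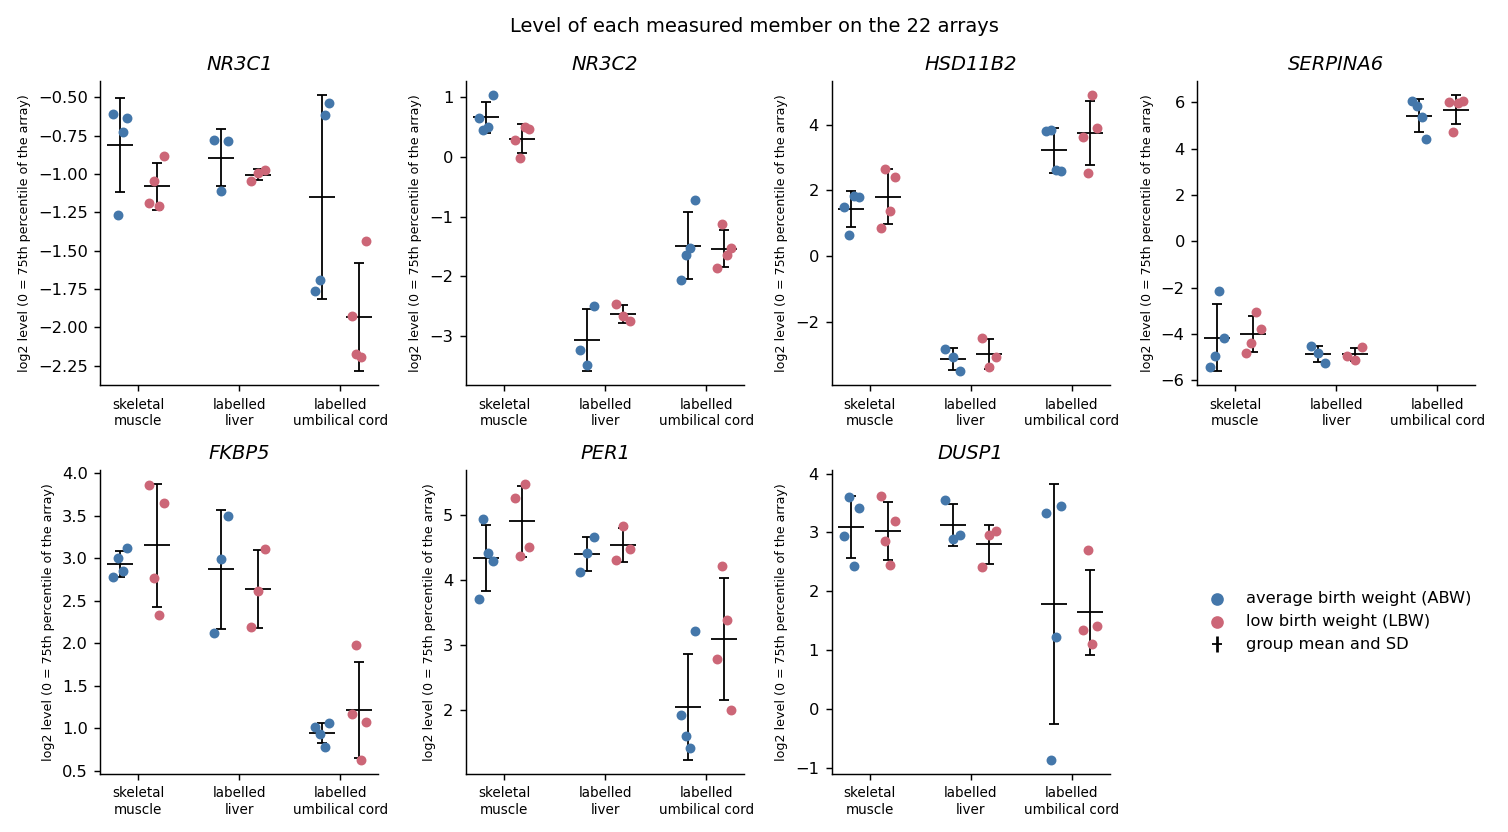
The y axis gives the log2 level of 1 probe (0 is the 75th percentile of the array) on each of the 22 arrays, by tissue label, with ABW in blue and LBW in red, and black marks for the group mean and SD. SERPINA6 lies at 4.43 or above on the cord-labelled arrays and at -2.13 or below on all others, while the 3 labels overlap for NR3C1.

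The 2 receptors had different profiles across labels. NR3C1, the receptor that mediates most glucocorticoid effects, had nearly the same level in skeletal muscle (mean -0.95 ± 0.27 SD, n = 8) and on liver-labelled arrays (-0.95 ± 0.14 SD, n = 6). On cord-labelled arrays it was at -1.54 ± 0.65 (SD, n = 8), 1.51-fold lower than in skeletal muscle (limma difference 0.60, 95% interval 0.20 to 0.99, adjusted p = 0.00886). That difference turned to -0.67 (adjusted p = 0.300) with scaling by the spike-in controls. NR3C1 was also 1.51-fold lower there than on liver-labelled arrays (adjusted p = 0.0145 by limma), a call that was lost with normexp background correction (-0.35, adjusted p = 0.0918) and with spike-in scaling (-0.02, adjusted p = 0.979). The interval of the difference between skeletal muscle and liver-labelled arrays was -0.42 to 0.43.

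In skeletal muscle NR3C1 was at -0.61, -1.26, -0.73 and -0.64 on the ABW arrays and at -1.19, -1.05, -1.21 and -0.88 on the LBW arrays. On liver-labelled arrays it was at -0.78, -1.11 and -0.79 in ABW and at -1.04, -0.99 and -0.98 in LBW. These are narrow ranges, with a pooled SD within groups of 0.24 and 0.14, against a median over all kept probes of 0.38 and 0.32. On cord-labelled arrays NR3C1 was at -1.76, -1.69, -0.61 and -0.54 in ABW and at -1.93, -2.17, -2.19 and -1.44 in LBW, so that the ABW arrays formed a lower pair on slide 4 and a higher pair on slide 6. The 2 arrays of slide 6 lay at the level of skeletal muscle and the other cord-labelled arrays below every array of skeletal muscle.

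NR3C2, the mineralocorticoid receptor, which binds cortisol as well as aldosterone, was highest in skeletal muscle (0.48 ± 0.30 SD, n = 8), lower on cord-labelled arrays (-1.51 ± 0.42 SD, n = 8) and lowest on liver-labelled arrays (-2.85 ± 0.42 SD, n = 6). The arrays of the 3 labels did not overlap. Skeletal muscle exceeded cord-labelled arrays 3.99-fold (difference 2.0, 95% interval 1.60 to 2.39, adjusted p = 1.11e-08 by limma; 0.73, adjusted p = 0.261, with spike-in scaling) and liver-labelled arrays 10.1-fold (adjusted p = 2.21e-11). Cord-labelled exceeded liver-labelled arrays 2.52-fold (adjusted p = 9.54e-06). The skeletal muscle ABW arrays gave 0.65, 0.46, 0.50 and 1.04, and the LBW arrays 0.28, -0.02, 0.50 and 0.47. Liver-labelled arrays gave -3.23, -3.48 and -2.49 in ABW and -2.46, -2.67 and -2.75 in LBW. Cord-labelled arrays gave -2.06, -1.64, -1.53 and -0.72 in ABW and -1.86, -1.12, -1.65 and -1.52 in LBW. Within each label the ABW and LBW arrays overlapped.

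HSD11B2, the enzyme that converts cortisol to inactive cortisone and is best known from kidney and placenta, was highest on cord-labelled arrays (3.48 ± 0.83 SD, n = 8). It was lower in skeletal muscle (1.63 ± 0.69 SD, n = 8) and lowest on liver-labelled arrays (-3.05 ± 0.37 SD, n = 6). The difference of cord-labelled from liver-labelled arrays was 92.7-fold (6.53, 95% interval 5.79 to 7.28, adjusted p = 2.03e-12 by limma). Skeletal muscle lay 25.7-fold above liver-labelled arrays (adjusted p = 5.79e-10) and 3.61-fold below cord-labelled arrays (adjusted p = 5.62e-05). The liver-labelled arrays, at -2.83, -3.08 and -3.50 in ABW and -2.49, -3.37 and -3.05 in LBW, overlapped with neither other label. Skeletal muscle gave 1.5, 0.65, 1.82 and 1.81 in ABW and 0.85, 2.64, 1.37 and 2.40 in LBW. Cord-labelled arrays gave 3.79, 3.84, 2.63 and 2.60 in ABW and 3.63, 2.54, 4.91 and 3.90 in LBW, and as with NR3C1 the ABW values formed 1 pair for each slide, here with slide 6 lower.

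HSD11B1, which works in the opposite direction, was represented by another transcript accession (NM_181755), which was chosen after its values had been seen and is not among the 7 members. Its level was highest on liver-labelled arrays (1.27 ± 0.46 SD, n = 6), lower on cord-labelled arrays (-1.33 ± 1.49 SD, n = 8) and lowest in skeletal muscle (-3.03 ± 0.80 SD, n = 8). The order of the 2 enzymes was thus not the same: the liver-labelled arrays were the lowest in HSD11B2 and the highest in this HSD11B1 transcript. Cord-labelled LBW replicate 2, at 1.90, was the only cord-labelled array above 0 for this transcript, the others lying between -2.99 and -1.04.

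SERPINA6, the carrier of cortisol in plasma, had the largest range of the members. Cord-labelled arrays were at 5.56 ± 0.65 (SD, n = 8), skeletal muscle at -4.09 ± 1.08 (SD, n = 8) and liver-labelled arrays at -4.87 ± 0.29 (SD, n = 6). The difference of cord-labelled from liver-labelled arrays was 10.43 on the log2 scale (95% interval 9.55 to 11.31, adjusted p = 1.81e-14 by limma), and skeletal muscle minus cord-labelled arrays was -9.65 (adjusted p = 1.32e-14). SERPINA6 was not among the 20 hepatocyte probes with which the labels were checked, and it had the same order as they did. Skeletal muscle and liver-labelled arrays were not separated (difference 0.78, 95% interval -0.10 to 1.66, adjusted p = 0.110 by limma).

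In skeletal muscle SERPINA6 was at -5.42, -4.94, -2.13 and -4.16 in ABW and at -4.82, -4.41, -3.05 and -3.79 in LBW, a 9.77-fold range over 8 arrays. The summed level of the hepatocyte list was 1.77, 2.89, 39.1 and 4.13 on the same ABW arrays and 0.505, 2.17, 18.2 and 8.80 on the LBW arrays, in multiples of the array's 75th percentile. Replicate 3 of each group was thus the highest both in SERPINA6 and in hepatocyte markers, and the part of those markers in the SERPINA6 level was not tested. Liver-labelled arrays gave -4.53, -4.81 and -5.25 in ABW and -4.95, -5.13 and -4.57 in LBW. Cord-labelled arrays gave 6.05, 5.86, 5.36 and 4.43 in ABW and 6.0, 4.73, 5.96 and 6.06 in LBW, with hepatocyte sums between 1611 and 4257.

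The 3 target genes on the array had one order in common: similar means in skeletal muscle and on liver-labelled arrays, and a lower mean on cord-labelled arrays. The means of NR3C1 had this order too, and the share of all probes with it was not counted. FKBP5, a co-chaperone that lowers the hormone affinity of the receptor and is induced by it, was at 3.05 ± 0.50 (SD, n = 8) in skeletal muscle, 2.75 ± 0.55 (SD, n = 6) on liver-labelled and 1.08 ± 0.41 (SD, n = 8) on cord-labelled arrays. Skeletal muscle exceeded cord-labelled arrays 3.91-fold (difference 1.97, 95% interval 1.46 to 2.48, adjusted p = 5.31e-07 by limma), and liver-labelled arrays exceeded them 3.19-fold (adjusted p = 1.28e-05). With spike-in scaling neither passed, at 0.70 (adjusted p = 0.280) for skeletal muscle minus cord-labelled and -1.11 (adjusted p = 0.132) for cord-labelled minus liver-labelled arrays. No cord-labelled array reached any array of the other labels. Skeletal muscle gave 2.78, 3.00, 2.85 and 3.12 in ABW and 3.87, 2.77, 2.34 and 3.65 in LBW. Liver-labelled arrays gave 2.11, 2.99 and 3.50 in ABW and 2.19, 2.62 and 3.11 in LBW. Cord-labelled arrays gave 1.01, 0.92, 0.78 and 1.05 in ABW and 1.17, 1.98, 0.63 and 1.07 in LBW, so the LBW arrays of skeletal muscle and of the cord label spread on both sides of a tight ABW group.

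PER1, a circadian clock component whose promoter the glucocorticoid receptor binds, was at 4.62 ± 0.57 (SD, n = 8) in skeletal muscle, 4.47 ± 0.25 (SD, n = 6) on liver-labelled and 2.57 ± 0.99 (SD, n = 8) on cord-labelled arrays. The cord-labelled level was 4.14-fold below skeletal muscle (adjusted p = 5.24e-06 by limma) and 3.73-fold below liver-labelled arrays (adjusted p = 3.61e-05). With spike-in scaling neither passed, at 0.78 (adjusted p = 0.225) for skeletal muscle minus cord-labelled and -1.33 (adjusted p = 0.0658) for cord-labelled minus liver-labelled arrays. Only cord-labelled LBW replicate 2, at 4.22, reached the range of the other labels. Skeletal muscle gave 3.71, 4.94, 4.42 and 4.30 in ABW and 5.25, 4.37, 5.48 and 4.51 in LBW. Liver-labelled arrays gave 4.12, 4.42 and 4.66 in ABW and 4.31, 4.82 and 4.48 in LBW. Cord-labelled arrays gave 1.93, 1.61, 1.42 and 3.22 in ABW and 2.78, 4.22, 3.38 and 2.0 in LBW, overlapping between the groups but with the 3 lowest values all ABW.

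DUSP1, a phosphatase that inactivates MAP kinases, was at 3.06 ± 0.48 (SD, n = 8) in skeletal muscle, 2.96 ± 0.36 (SD, n = 6) on liver-labelled and 1.71 ± 1.42 (SD, n = 8) on cord-labelled arrays. The cord-labelled level was 2.55-fold below skeletal muscle (adjusted p = 0.0149 by limma) and 2.38-fold below liver-labelled arrays (adjusted p = 0.0331). With spike-in scaling DUSP1 was at 0.08 (adjusted p = 0.910) for skeletal muscle minus cord-labelled and -0.68 (adjusted p = 0.376) for cord-labelled minus liver-labelled arrays. The difference from liver-labelled arrays did not pass in 8 of the 22 fits that left out 1 array, those without cord-labelled ABW replicate 2 or 3, cord-labelled LBW replicate 1, 3 or 4, liver-labelled ABW replicate 1 or liver-labelled LBW replicate 2 or 3, with adjusted p-values up to 0.0720 by limma. Without cord-labelled ABW replicate 2 the difference fell by over 1.5 times, to -0.81 (adjusted p = 0.0512). Cord-labelled arrays gave 3.34, -0.87, 1.22 and 3.45 in ABW and 1.35, 2.70, 1.11 and 1.41 in LBW, a pooled SD within groups of 1.53 against a median of 0.54 over all kept probes. Skeletal muscle gave 2.94, 3.60, 2.43 and 3.42 in ABW and 3.62, 2.86, 2.44 and 3.19 in LBW. Liver-labelled arrays gave 3.54, 2.90 and 2.95 in ABW and 2.42, 2.95 and 3.03 in LBW, with 3 of the 8 cord-labelled arrays in the range of the other labels.

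TSC22D3, which encodes the glucocorticoid-induced leucine zipper, was represented by another transcript (NM_198057) that belonged to the wider list of glucocorticoid-induced genes. Of the 27 tested probes of that list 9 were higher and 10 lower on cord-labelled than on liver-labelled arrays. The TSC22D3 transcript had the same order as FKBP5, PER1 and DUSP1, at 3.91 ± 0.40 (SD, n = 8) in skeletal muscle, 3.74 ± 0.38 (SD, n = 6) on liver-labelled and 2.20 ± 0.58 (SD, n = 8) on cord-labelled arrays. No cord-labelled array reached any other, and the level was 3.27-fold below skeletal muscle (adjusted p = 1.75e-06 by limma) and 2.93-fold below liver-labelled arrays (adjusted p = 1.73e-05). Its level differences with spike-in scaling, under which FKBP5, PER1 and DUSP1 lost these calls, are not given here.

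**Figure D2:**
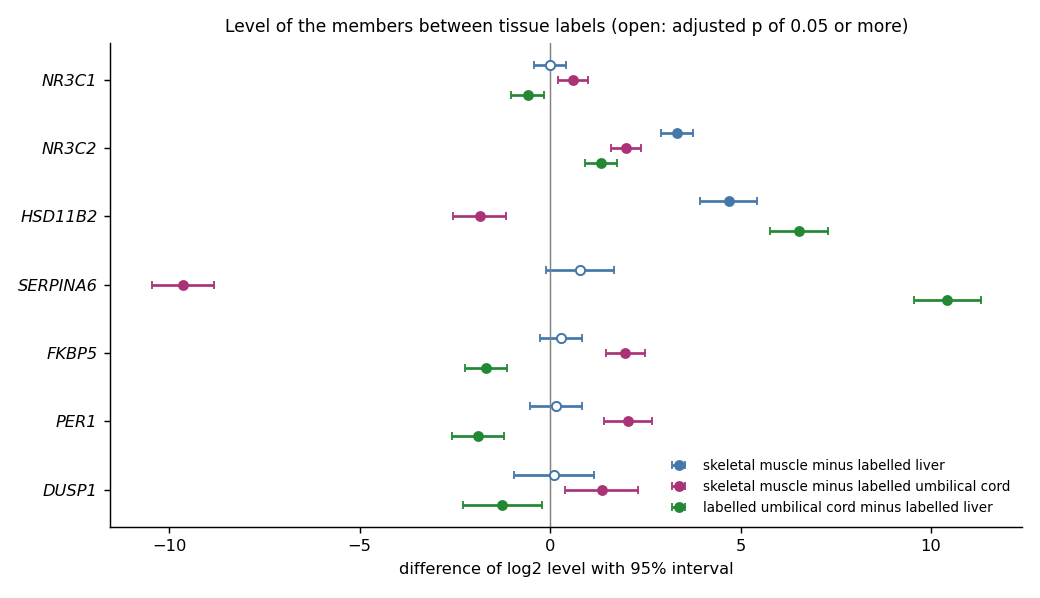
The x axis gives the difference of the log2 level between 2 tissue labels from the limma fit of all 22 arrays, with its 95% interval, for each of the 7 members, and open points mark an adjusted p of 0.05 or more. All 7 members differ between cord-labelled arrays and each other label (64.9% of all probes against skeletal muscle and 66.9% against the liver label). Between skeletal muscle and liver-labelled arrays 2 of 7, NR3C2 and HSD11B2, differ (65.3% of all probes). With spike-in scaling, not drawn, 2 of 7 pass between skeletal muscle and cord-labelled arrays and 3 of 7 between cord-labelled and liver-labelled arrays.

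Counted over the members, 7 of 7 differed between skeletal muscle and cord-labelled arrays, where 64.9% of all probes did, 35.8% higher in skeletal muscle and 29.1% lower, and the members were 5 higher and 2 lower. Of the same members 7 of 7 differed between cord-labelled and liver-labelled arrays, where 66.9% of all probes did, 35.6% higher on cord-labelled arrays and 31.3% lower, and the members were 3 higher and 4 lower. Between skeletal muscle and liver-labelled arrays 2 of 7 differed, both higher in skeletal muscle, against 65.3% of all probes (37.1% higher and 28.1% lower). The arrays of a pair of labels did not overlap at 3 of 7 members for skeletal muscle against the cord label (32.2% of all probes), at 4 of 7 for the cord against the liver label (38.0%) and at 2 of 7 for skeletal muscle against the liver label (42.5%). These directions hold relative to the 75th percentile. Scaling by the spike-in controls moved the median difference of all probes between skeletal muscle and cord-labelled arrays from 0.11 to -1.16, and 2 of 7 members, HSD11B2 and SERPINA6, then passed. Between cord-labelled and liver-labelled arrays 3 of 7 passed under that scaling. The shares of all probes that passed under it are not given here, so these counts cannot be set against them. Slide 4 held both labels, as cord-labelled ABW replicates 1 and 2 and liver-labelled LBW replicates 2 and 3. On it alone all 7 differences kept their sign and 4 of 7 passed the threshold, without NR3C1 (-0.74, adjusted p = 0.0643), NR3C2 (0.86, adjusted p = 0.0605) and DUSP1 (-1.75, adjusted p = 0.330). On that slide label and birth weight group are the same split of arrays, so the fit cannot tell them apart. The share of all probes that passed there is not given here.

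The study asked whether gene expression differs between neonates at 2 positions within the normal range of birth weight. At a Benjamini-Hochberg adjusted p under 0.05 by limma no member differed between LBW and ABW in any label, and none did at an unadjusted p under 0.05. This was so in skeletal muscle (0.0% of all probes at the adjusted threshold and 14.7% at the unadjusted), on liver-labelled arrays (0.0% and 5.99%) and on cord-labelled arrays (0.625% and 8.94%). By the methods' thresholds, an unadjusted p under 0.05 with at least a 1.5-fold difference, 0 of 7 members passed in each label, both by limma and by the methods' t-test, where limma called 12.2% of all probes in skeletal muscle, 4.71% on liver-labelled and 8.93% on cord-labelled arrays. The LBW arrays of no member lay wholly above or below the ABW arrays in any label, as they did for 10.5%, 12.0% and 5.85% of all probes. With 4 arrays against 4 the exact permutation test can reach 0.0286 and with 3 against 3 no less than 0.1.

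**Figure D3:**
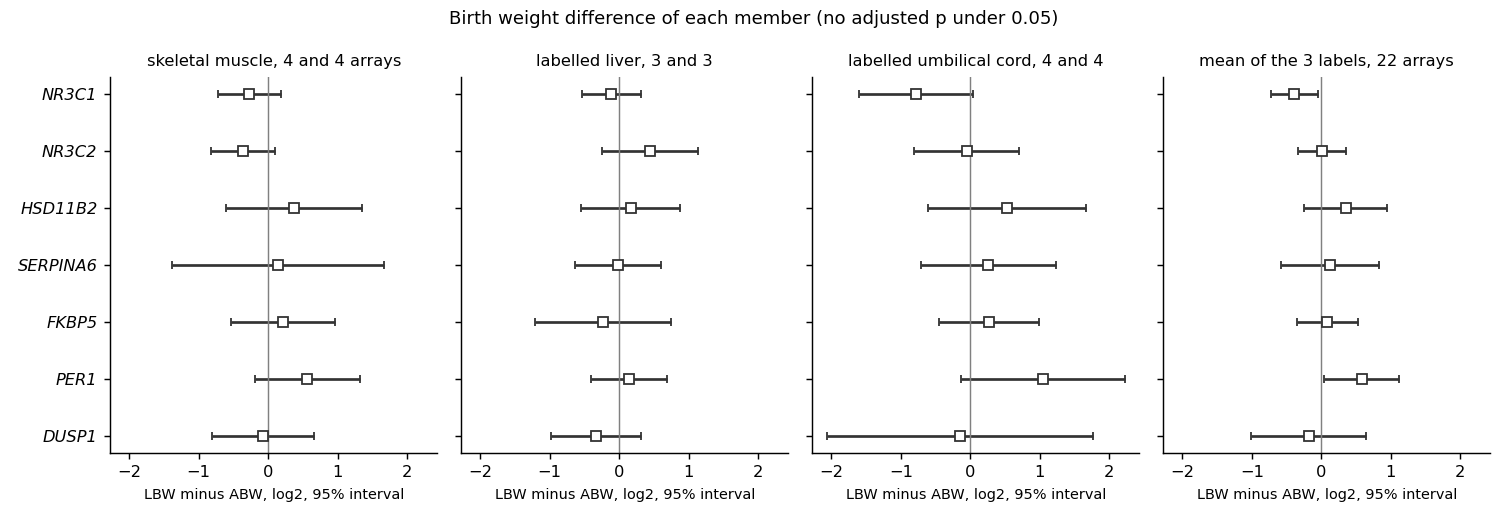
The x axis gives LBW minus ABW in log2 units with its 95% interval for each member, within each tissue label and as the mean of the 3 labels. The interval includes 0 in all 21 differences within labels, and excludes it in the mean for NR3C1 and PER1 alone.

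NR3C1 had a lower mean in LBW in all 3 labels (on liver-labelled arrays the sign turned with spike-in scaling, to 0.05), and its largest difference on cord-labelled arrays. There it was -0.78 (SE 0.37, 95% interval -1.61 to 0.04, limma adjusted p = 0.574, exact permutation p = 0.114), 1.72-fold lower in LBW. In skeletal muscle it was -0.27 (95% interval -0.72 to 0.18, limma adjusted p = 0.577) and on liver-labelled arrays -0.11 (95% interval -0.54 to 0.31, limma adjusted p = 0.964). The cord-labelled difference went with the slide: against the ABW arrays of slide 4 it was -0.21 (unadjusted p = 0.567 by limma) and against those of slide 6 it was -1.36 (unadjusted p = 0.00741, adjusted p = 0.234). With slide as a random block, with the spread of all 22 arrays, against slide 6 alone, or without ABW replicate 1 (-0.99), ABW replicate 2 (-0.96) or LBW replicate 4 (-0.95), NR3C1 passed the methods' thresholds. Since no slide held cord-labelled arrays of both groups, none of these settings separates slide from birth weight, and under none of the alternatives did it pass the adjusted one.

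PER1 had a higher mean in LBW in all 3 labels. The difference was 1.05 on cord-labelled arrays (SE 0.53, 95% interval -0.13 to 2.22, limma adjusted p = 0.587, exact permutation p = 0.143), 0.56 in skeletal muscle (95% interval -0.19 to 1.32, limma adjusted p = 0.479) and 0.14 on liver-labelled arrays (95% interval -0.41 to 0.68, limma adjusted p = 0.966). On cord-labelled arrays it was 1.32 against the ABW arrays of slide 4 and 0.77 against those of slide 6. Without LBW replicate 2, the highest array, it was 0.67, and without ABW replicate 4, the highest ABW array, it was 1.44 (unadjusted p = 0.0165, adjusted p = 0.544 by limma). PER1 passed the methods' thresholds in that case, without LBW replicate 4 (1.41), with slide as a random block and with the spread of all 22 arrays. On liver-labelled arrays the sign turned on slide 3 alone, to -0.09.

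**Figure D4:**
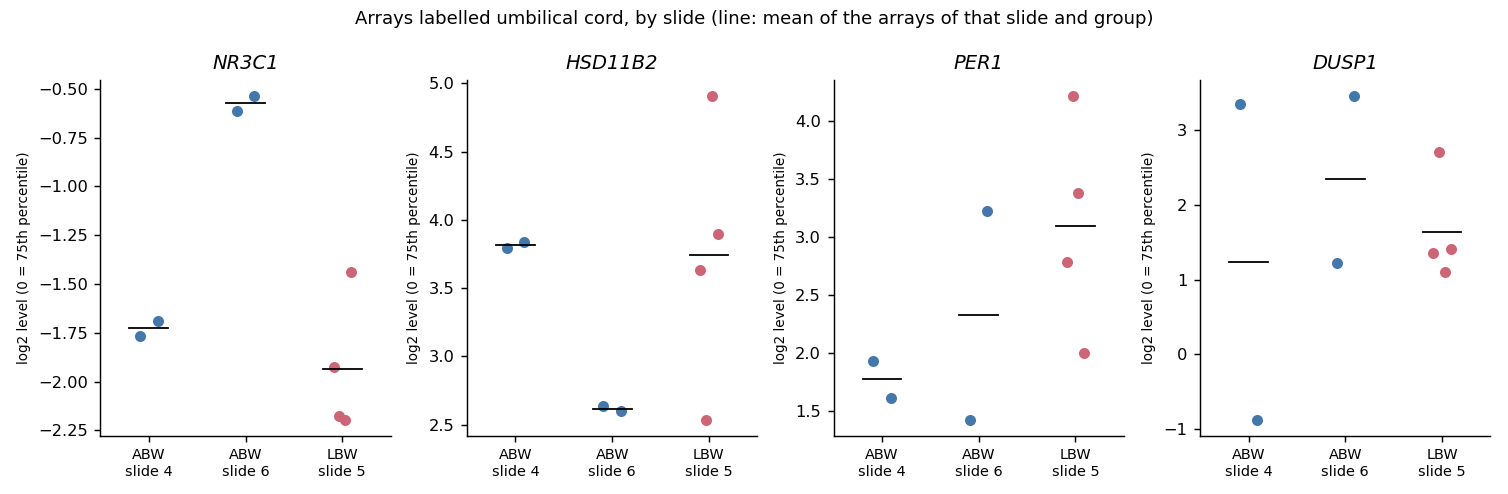
The y axis gives the log2 level of NR3C1, HSD11B2, PER1 and DUSP1 on the 8 cord-labelled arrays, separated by slide, with a line at the mean of each set. For NR3C1 the ABW mean is -1.73 on slide 4 and -0.57 on slide 6, against -1.93 for LBW on slide 5, and for HSD11B2 it is 3.82 and 2.62 against 3.74.

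Taken as the mean over the 3 labels, NR3C1 was 1.31-fold lower in LBW (-0.39, SE 0.16, 95% interval -0.73 to -0.05) at an unadjusted p of 0.0262 and an adjusted p of 0.304 by limma. PER1 was 1.5-fold higher (0.58, SE 0.26, 95% interval 0.04 to 1.13) at an unadjusted p of 0.0370 and an adjusted p of 0.337. These 2 of 7 members compare with 13.6% of all probes at that unadjusted threshold, and 0 of 7 with 0.888% at the adjusted one. By the methods, liver and skeletal muscle were taken from the same neonates. The main fit treats all 22 arrays as separate, so its SE, intervals and p-values do not allow for arrays that share a neonate. NR3C1 passed the unadjusted threshold in all 22 fits that left out 1 array and PER1 in 11 of them, with its lowest mean difference, 0.46, and its highest unadjusted p, 0.0713, without cord-labelled LBW replicate 2. With spike-in scaling neither did so, at -0.59 for NR3C1 and 0.38 for PER1. Leaving out 1 array never removed both cord-labelled ABW arrays of slide 6. Against that pair the cord-labelled difference was -1.36 for NR3C1 and 0.77 for PER1, and against slide 4 it was -0.21 and 1.32. No slide held ABW and LBW arrays together in skeletal muscle or under the cord label. The mean over labels therefore includes any slide effect there, which leaving out 1 array does not separate from birth weight. The sign was the same in all 3 labels for 4 of the 7 members, NR3C1, PER1, HSD11B2 and DUSP1, and for 32.9% of all probes. This count rests on small differences: the sign turned for DUSP1 in 3 of the 8 fits that left out 1 array in skeletal muscle and in 3 of 8 on cord-labelled arrays, and for HSD11B2 and PER1 in 2 of 6 each on liver-labelled arrays. It also turned for HSD11B2 in skeletal muscle with spike-in scaling (-0.04), and on cord-labelled arrays against slide 4 for HSD11B2 (-0.07) and DUSP1 (0.40).

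The other 5 members gave mean differences with intervals on both sides of 0. HSD11B2 gave 0.35 (95% interval -0.24 to 0.95), from 0.37 in skeletal muscle, 0.17 on liver-labelled and 0.53 on cord-labelled arrays. With 1 array left out it ran from 0.09 (without LBW replicate 2) to 0.69 (without LBW replicate 1) in skeletal muscle and from 0.14 (without LBW replicate 3) to 0.93 (without LBW replicate 2) on cord-labelled arrays. SERPINA6 gave 0.13 (95% interval -0.57 to 0.83) and FKBP5 0.09 (95% interval -0.35 to 0.53). DUSP1 gave -0.18 with an interval of -1.01 to 0.65, so that a difference of 1.5-fold in either direction lies within it. NR3C2 gave 0.01 (95% interval -0.33 to 0.36), from -0.36 in skeletal muscle, 0.44 on liver-labelled and -0.05 on cord-labelled arrays. Whether the birth weight difference itself differed between the labels was tested as an interaction, which no member passed (lowest adjusted p 0.744, for NR3C2, by limma; 1.01% of all probes passed, and no member had an unadjusted p under 0.05).

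Of the marker probes of cell types none differed between birth weight groups in skeletal muscle at an adjusted p under 0.05 by limma. By the methods' thresholds, which 12.2% of all probes passed there in either direction, 5 of 13 matrix and stroma probes were lower in LBW, and the sum of the list was between 78.3 and 142.2 in ABW and between 54.7 and 97.5 in LBW. By the same thresholds 3 of 7 erythroid probes were higher in LBW, with sums between 3.71 and 44.0 in ABW and between 17.8 and 61.2 in LBW. The leukocyte list summed to between 29.5 and 40.5 in ABW and between 18.2 and 29.4 in LBW. Of its 10 tested probes 1 was higher and 1 lower in LBW by the methods' thresholds. Of all 12 probes 4 were well above background on no ABW array there, and 4 on no LBW array. On cord-labelled arrays the matrix sum was between 65.8 and 97.7 in ABW and between 67.1 and 107.7 in LBW, and the leukocyte sum between 52.8 and 67.1 and between 56.9 and 121.2. The erythroid sum there was between 34.6 and 149.7 in ABW and between 15.2 and 95.7 in LBW, with 1 of 7 probes lower in LBW by the methods' thresholds (8.93% of all probes). The part of these cell types in the NR3C1 and PER1 differences was not tested.

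Whether the receptor and its target genes moved together over arrays was examined as 6 pairs of NR3C1, FKBP5, DUSP1 and PER1 in each of the 3 labels. None of the 18 relations passed after Benjamini-Hochberg adjustment, and 2 had an unadjusted exact permutation p under 0.05 by Pearson's r. By Spearman's rho these 2 did so too, as did NR3C1 with DUSP1 on liver-labelled arrays (rho = 0.886, n = 6, exact permutation p = 0.0333, adjusted p = 0.221; r = 0.649, exact permutation p = 0.169). In skeletal muscle NR3C1 and PER1 ran in opposite directions (Pearson r = -0.855, n = 8, exact permutation p = 0.0055, adjusted p = 0.0991). Spearman's rho was -0.857 (exact permutation p = 0.0107, adjusted p = 0.193), and r was -0.758 without the 2 arrays farthest from the NR3C1 median. FKBP5 and DUSP1 rose and fell together there (r = 0.716, n = 8, exact permutation p = 0.0417, adjusted p = 0.375; rho = 0.762, exact permutation p = 0.0368, adjusted p = 0.221; r = 0.755 without the 2 farthest arrays). In skeletal muscle the birth weight groups are also the slides. With values centred on the birth weight group means, which was added after seeing the data, r was -0.797 for NR3C1 and PER1 (n = 8, exact permutation within groups p = 0.0278, adjusted p = 0.250) and 0.757 for FKBP5 and DUSP1 (n = 8, exact permutation within groups p = 0.0122, adjusted p = 0.219). So centred, FKBP5 and DUSP1 also had an unadjusted p under 0.05 on cord-labelled arrays (r = 0.426, n = 8, exact permutation within groups p = 0.0486, adjusted p = 0.292). NR3C1 and PER1 had r = -0.412 on cord-labelled arrays (n = 8, exact permutation p = 0.310) and r = -0.125 on liver-labelled arrays (n = 6, exact permutation p = 0.767). Without the 2 arrays farthest from the NR3C1 median these became -0.861 and 0.497, and centred on group means -0.07 and 0.01, so neither value was stable.

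Over all 22 arrays, the probes whose profile was most like NR3C1 were those of XM_291142 (Pearson r = 0.855), XM_497144 (r = 0.855) and NM_144596, the ciliary gene TTC8 (r = 0.834). For SERPINA6 they were NM_000613 (r = 0.996), which encodes the haem-binding plasma protein haemopexin (HPX), and NM_000185 (r = 0.995) and NM_000505 (r = 0.994). These coefficients describe 22 arrays that share 3 labels, and the label differences enter them. Within single labels the first NR3C1 match had r = 0.224 in skeletal muscle, 0.653 on liver-labelled and 0.934 on cord-labelled arrays. HPX and SERPINA6 had r = 0.97 in skeletal muscle, 0.168 on liver-labelled and 0.603 on cord-labelled arrays. For PER1, examined after its values had been seen, the nearest probe was the TSC22D3 transcript (r = 0.915 over 22 arrays, 0.761 in skeletal muscle, 0.350 on liver-labelled and 0.761 on cord-labelled arrays).

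The rest of the pathway was described with 4 lists, of receptor chaperones, receptor coregulators, enzymes and transporters of steroid metabolism, and other glucocorticoid-induced genes, with 45 probes tested. None passed the adjusted threshold within a label. By the methods' thresholds 4 of the 45 did so in skeletal muscle, 2 on liver-labelled and 2 on cord-labelled arrays, to be read against the 12.2%, 4.71% and 8.93% of all probes given above. By the methods' t-test the list passes fell to 0 on liver-labelled and 0 on cord-labelled arrays, and with spike-in scaling to 1 and 0. The median difference of the 45 was 0.10 in skeletal muscle (all probes 0.07), -0.01 on liver-labelled (0.06) and 0.28 on cord-labelled arrays (-0.01).

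All 8 of these passes but 1 were glucocorticoid-induced genes, of which 27 probes were tested. In skeletal muscle DDIT4 (NM_019058), an inhibitor of mTORC1, was 2.77-fold higher in LBW (1.47, limma adjusted p = 0.135, exact permutation p = 0.0286). NFKBIA (NM_020529), the inhibitor of NF-kappaB, was 1.55-fold higher (0.63, limma adjusted p = 0.245, exact permutation p = 0.0571, and 0.22 with spike-in scaling, past no threshold). ANXA1 (NM_000700), the anti-inflammatory annexin, was 2.08-fold lower (-1.06, limma adjusted p = 0.168, exact permutation p = 0.0571). The birth weight groups of skeletal muscle are also slides 1 and 2. DDIT4 was at -2.04, -1.45, -1.18 and -0.59 on the ABW arrays and at 0.71, -0.56, 0.68 and -0.20 on the LBW arrays, which lay wholly above. On liver-labelled arrays it ran the other way, at 0.14, 0.04 and 0.02 in ABW and at -0.21, -1.31 and -1.43 in LBW (difference -1.05, limma adjusted p = 0.813, exact permutation p = 0.1). The liver-labelled LBW array nearest to the ABW arrays was the one on their slide. The interaction for DDIT4 had an unadjusted p of 0.00154 and an adjusted p of 0.103 by limma. On cord-labelled arrays KLF15 (NM_014079), a transcription factor of fasting metabolism, was 3.10-fold lower (-1.63, limma adjusted p = 0.447, exact permutation p = 0.0857). It was past the methods' thresholds neither by the methods' t-test nor with spike-in scaling. HSPA1A (NM_005345), an HSP70 of the receptor's chaperone cycle and the single pass from that list, was 2.20-fold higher (1.13, limma adjusted p = 0.543, exact permutation p = 0.0857) and lost its pass in the same 2 settings.

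TAT (NM_000353), tyrosine aminotransferase, a hepatocyte enzyme and a standard glucocorticoid target, was the one list gene whose fitted mean over the 3 labels passed (limma adjusted p = 0.0404). Its fitted value of 1.0 is no measured fold, since the ABW arrays of 2 of the 3 labels were at background. On cord-labelled arrays, where it was well above background throughout, it was at 0.10, -0.55, -0.19 and 0.92 in ABW and at 0.68, 1.31, 0.99 and 0.25 in LBW (difference 0.74, limma adjusted p = 0.590). In skeletal muscle it was well above background on 0 of 4 ABW arrays and on 4 of 4 LBW arrays (limma adjusted p = 0.168). On liver-labelled arrays it was so on 0 of 3 ABW and 1 of 3 LBW arrays, and no fold is given (limma adjusted p = 0.813). With each ABW signal in skeletal muscle raised to at least the lowest signal well above background on its array, LBW was 2.07-fold higher. This value is no lower bound, since that lowest signal came from any probe and is not the limit of the TAT probe. On ABW replicates 2 and 4 TAT had signals of 6.41 and 7.27, above lowest signals of 5.48 and 6.06. It was still not well above background there. The mean difference lost its call with normexp background correction (0.35, adjusted p = 0.378), with spike-in scaling (0.79, adjusted p = 0.9999), with a floor on dim signals (0.71, adjusted p = 0.131), with quantile normalization (0.86, adjusted p = 0.0796), and without moderation (adjusted p = 0.0632). It also lost its call in 14 of the 22 fits that left out 1 array, those without skeletal muscle ABW replicate 1, 2 or 3 or LBW replicate 3, cord-labelled ABW or LBW replicate 1, 2 or 3, liver-labelled ABW replicate 1 or 2 or liver-labelled LBW replicate 2 or 3, with adjusted p-values up to 0.106 by limma. TAT is also 1 of the hepatocyte markers, whose sum in skeletal muscle is given above with SERPINA6.

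**Figure D5:**
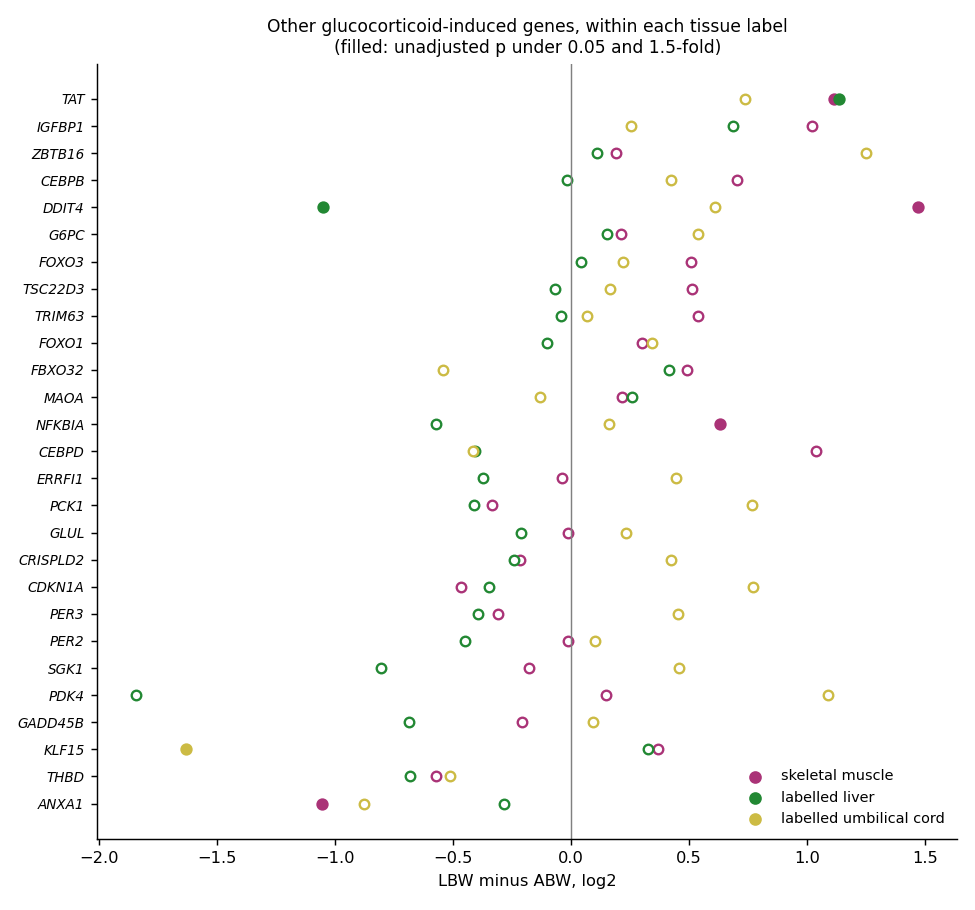
The x axis gives LBW minus ABW in log2 units for each of the 27 tested probes of other glucocorticoid-induced genes, coloured by tissue label, with filled points for an unadjusted p under 0.05 and at least a 1.5-fold difference, ordered by the mean of the 3 labels. TAT, DDIT4, NFKBIA, ANXA1 and KLF15 hold the 7 filled points, and DDIT4 has one on each side of 0.

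Between labels, all 7 probes of steroid metabolism, a list that holds steroid reductases and cytochrome P450 enzymes of liver, were higher on cord-labelled than on liver-labelled arrays and than in skeletal muscle, against 35.6% and 29.1% of all probes, with median differences of 3.97 from the first and of -3.78 for skeletal muscle minus cord-labelled arrays. Of the 27 induced probes 9 were higher and 10 lower on cord-labelled than on liver-labelled arrays (median -0.18, all probes 0.13), near the 35.6% and 31.3% of all probes. Of the 6 chaperone probes 5 were higher in skeletal muscle than on liver-labelled arrays (median 1.18, all probes 0.21), and of the 5 coregulators 2 were higher and 1 lower, where 37.1% of all probes were higher and 28.1% lower.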

How the data were processed

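Total RNA was labelled with Cy3 and hybridised to Agilent rhesus macaque arrays, and the authors quantified the scans with Agilent Feature Extraction. The deposited scanner files hold intensity per spot after Agilent's background correction, not normalized between arrays. The series table, deposited on a log2 scale, served as an alternative only. The files used hold no mean signal, so the normexp alternative (offset 50) used median signals. Array coordinates refer to another genome build than the reference tables, so no positions or sequences are given.

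For this report, the mean of both spots of each probe was log2-transformed and set relative to the array's 75th percentile. The filter kept the 17117 of 20217 probes that were well above background on 75% or more of the arrays in 1 or more of the 6 groups. LBW and ABW were compared within each label, and labels and the mean over labels in 1 fit of 22 arrays, with limma 3.58.1 (R 4.3.3) and Benjamini-Hochberg adjustment over all kept probes. Exact permutation tests (scipy 1.17.1) were two-sided. The methods' thresholds were an unadjusted p under 0.05 and 1.5-fold. The fits were tested on simulated data. Alternatives covered background correction, scaling, filter, floor, single arrays left out, slide, replicate block and the methods' t-test. Slide 3 alone, slide 4 alone, slide as a random block across labels and correlations within birth weight groups were added after seeing the data.

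The members and lists were chosen with earlier results of these data known. All members are reported. From the lists, up to 3 genes in each direction in each label with the largest differences past the adjusted threshold, or else past the methods' thresholds, are named. For NR3C1 and SERPINA6 the 3 probes with the highest Pearson r are named. Symbols of list genes were assigned from their human RefSeq accessions. The number of arrays limits the precision, and p-values measure the spread between these arrays, which are not stated to be from separate animals in every case. Replicate numbers were not taken to pair arrays.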

Additional observations from a re-analysis of the deposited data

Results flagged for a closer look

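In groups of 4 arrays, an array was picked out whose gap to its nearest neighbour took most of the group's range (Dixon's 95% critical value), which chance gives in about 1 of 20 groups. Of 60 groups 2 had such an array. SERPINA6 on cord-labelled LBW replicate 2, at 4.73, was the lowest of its group, far from the other 3 LBW arrays. TAT on skeletal muscle LBW replicate 3, at -4.82, was the highest of its group, and the hepatocyte sum of that array, 18.2, was the highest among the skeletal muscle LBW arrays.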

How the results depend on the processing

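No member passed the adjusted threshold for LBW against ABW, within a label or in the mean, under any alternative run. By the methods' thresholds 1 member passed in skeletal muscle with spike-in scaling (NR3C2, -0.77), and on cord-labelled arrays 2 did with the spread of all 22 arrays or slide as a random block and 1 against the ABW arrays of slide 6 alone. Leaving out 1 array gave 0 to 1 members on liver-labelled (NR3C2, 0.73, without ABW replicate 3) and 0 to 2 on cord-labelled arrays. For the mean, the count at an unadjusted p under 0.05 was 0 with spike-in scaling, 1 with quantile normalization or without moderation, and 1 to 2 with 1 array left out.

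The list count of 2 on liver-labelled arrays became 1 with spike-in scaling, slide as a fixed block or slide 3 alone, 0 by the methods' t-test, and 1 to 4 with 1 array left out (4 without LBW replicate 1). That of 2 on cord-labelled arrays became 4 with normexp, 6 with the shared spread, 7 with slide as a random block, 5 against slide 6 alone, 0 with spike-in scaling or the methods' t-test, and 2 to 6 with 1 array left out (4 to 6 without ABW replicate 1, 2 or 4). The count of 4 in skeletal muscle ran from 3 to 8 with 1 array left out (7 without ABW replicate 4 and 8 without LBW replicate 2). The list count of 1 (TAT) for the mean became 0 with normexp, spike-in scaling, quantile normalization, the floor and no moderation, and 0 to 1 with 1 array left out.

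Signs of birth weight differences turned, in each case for values past no threshold, as follows. With spike-in scaling skeletal muscle LBW minus ABW became -0.0447 for HSD11B2, -0.20 for FKBP5, -0.27 for SERPINA6, -0.048 for KLF15 and -0.30 for HSPA1A. It became 0.0514 for NR3C1, 0.14 for SERPINA6 and 0.10 for TSC22D3 on liver-labelled arrays, and -0.0904 for FKBP5, -0.10 for SERPINA6, -0.20 for TSC22D3 and -0.20 for NFKBIA on cord-labelled arrays. The mean became -0.19 for NR3C2, -0.12 for FKBP5, -0.076 for SERPINA6 and -0.13 for NFKBIA. SERPINA6 turned to -0.00055 in skeletal muscle with quantile normalization and to 0.0102 with normexp and 0.00051 with median scaling on liver-labelled arrays. HSPA1A in skeletal muscle turned to -0.0254 with normexp, and NR3C2 on cord-labelled arrays to 0.10 with normexp and 0.021 with median scaling. With slide as a fixed block, or on slide 3 alone, liver-labelled PER1 became -0.0907, TSC22D3 0.18, ANXA1 0.0428 and KLF15 -0.24. Against the ABW arrays of slide 4 alone cord-labelled NR3C2 became 0.32, HSD11B2 -0.0725, DUSP1 0.40 and SERPINA6 -0.27.

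With 1 array left out, skeletal muscle differences ran from -0.0191 to 0.49 for FKBP5, -0.29 to 0.12 for DUSP1, -0.27 to 0.82 for SERPINA6 and -0.13 to 0.32 for HSPA1A. Liver-labelled differences ran from -0.0757 to 0.37 for HSD11B2, -0.61 to 0.0863 for FKBP5, -0.0058 to 0.26 for PER1, -0.21 to 0.15 for SERPINA6, -0.35 to 0.19 for TSC22D3, -0.0281 to 0.67 for KLF15 and -0.43 to 0.58 for HSPA1A. Cord-labelled differences ran from -0.24 to 0.21 for NR3C2, -1.03 to 0.41 for DUSP1, -0.0711 to 0.58 for SERPINA6, -0.0652 to 0.36 for TSC22D3, -0.13 to 1.41 for HSD11B1 and -0.0604 to 0.45 for NFKBIA. The mean ran from -0.0563 to 0.11 for NR3C2, -0.0395 to 0.19 for FKBP5, -0.48 to 0.0019 for DUSP1, -0.0109 to 0.35 for SERPINA6, -0.0212 to 0.49 for HSD11B1 and -0.0295 to 0.20 for NFKBIA.

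Between labels, spike-in scaling left 2 members for skeletal muscle against the cord label, with NR3C1 at -0.67, and 3 for the cord against the liver label. For the latter pair slide 4 alone, where label and birth weight group are the same split, left 4. Normexp left 6 there, without NR3C1. Leaving out 1 array gave 6 to 7 members for the latter, and 2 to 3 for skeletal muscle against the liver label, where SERPINA6 passed without skeletal muscle ABW replicate 1 (0.99, adjusted p = 0.0404 by limma). The level of skeletal muscle minus liver-labelled arrays turned with spike-in scaling to -0.70 for NR3C1, -0.41 for FKBP5, -0.60 for DUSP1 and -0.55 for PER1, and with quantile normalization to -0.053 for FKBP5, -0.28 for DUSP1 and -0.40 for PER1, and ran from -0.051 to 0.0791 for NR3C1 with 1 array left out. The cause of these changes was not tested.

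Same-numbered ABW and LBW arrays of a label, which come from different neonates, deviated from their group means with correlations between -0.22 and 0.30. Arrays of the same group and number in different labels did so with correlations between -0.29 and 0.38. These values cannot show whether a number marks 1 animal. With the replicate block the members passing the methods' thresholds stayed at 0 in each label, and the mean difference of NR3C1 was -0.39 and that of PER1 0.59.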

Other observations

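Cord-labelled LBW replicate 2 stood at the edge of its label for several genes of the system. It was the highest of the 8 cord-labelled arrays for PER1 (4.22), FKBP5 (1.98), the TSC22D3 transcript (2.97) and the HSD11B1 transcript (1.90), and the lowest for HSD11B2 (2.54). It was neither the highest nor the lowest for NR3C1 (-2.17), NR3C2 (-1.12), DUSP1 (2.70) and SERPINA6 (4.73). The values at the edge were picked out after they had been seen and were not tested. The share of all probes for which this array was at the edge was not counted.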
